A study of Mus musculus with 12 samples.

Results

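Described here are the 2 most abundant mRNA features of 1 listed length in the newborn mouse eye. A feature is a distinct set of 12 read counts, 1 per library, and the listed length is a number that the deposited files give to each transcript without a unit. Of 32803 features in all, 6 had the listed length chosen here, which was longer than that of 93.8% of all features (median 410, range 16 to 33458). The 2 with the highest mean share of mRNA counts over the 6 mRNA libraries were selected on that measured share, so their high mRNA level is a description and was not tested. They carry the UCSC transcript identifiers uc029qyg.1 and uc029wdl.1. No table used here pairs these identifiers with genes, so gene names, positions and sequences are not given.

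The libraries came from eyes of mice at postnatal day 0.5. Wild-type (WT) mice were compared with mice that the labels call RNG140 knockout (KO). Each genotype had 3 libraries of ribosome footprints and 3 of mRNA, 12 in all. The labels name no strain, allele, sex, litter or treatment, and do not state that each library is its own animal, so a p-value here rests on spread between libraries that may be technical. The counts summed to between 666464 and 1244104 in the mRNA libraries and between 327847 and 5966639 in the footprint libraries. The expression of Caprin2, the gene of RNG140, and of the defining markers of lens, retina, muscle and blood was not analysed here, so genotype and tissue rest on the labels.

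RNG140 is an RNA-binding protein found in RNA granules and is the product of Caprin2. It belongs with RNG105, the product of Caprin1, to a family of proteins linked to the control of translation, and loss of Caprin2 in the mouse is known to disturb the lens. Ribosome profiling sequences the RNA fragments that ribosomes shield from nuclease. The number of footprints on an mRNA, divided by its mRNA level, is read as translation efficiency, that is, how heavily each mRNA copy is loaded with ribosomes.

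The 2 features led the mRNA of the eye. Averaged over the 6 mRNA libraries, uc029qyg.1 took 1.04% of the counts and uc029wdl.1 took 1.005%, ranks 1 and 2 among all features. The other features of the same listed length were far lower. The highest of them, just outside the selection, took a mean of 0.00778% (between 30 and 126 counts per mRNA library), and the lowest 0.00151%. No feature of this length lay between these levels and those of uc029qyg.1 and uc029wdl.1. Long features yield more counts per molecule, so each count was also divided by the listed length and expressed as a share of the library's total of such quotients. On that per-length scale uc029qyg.1 ranked between 5 and 16 in the WT mRNA libraries and 21, 160 and 163 in KO libraries 1, 2 and 3. Per unit of length, the 2 features were thus abundant without being the highest.

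**Figure D1:**
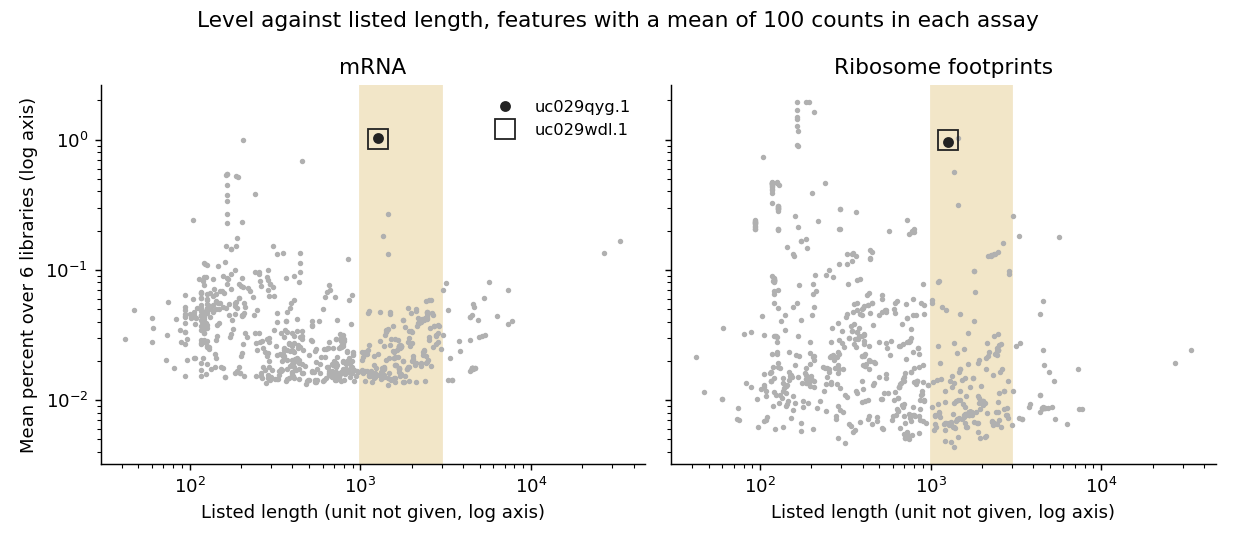
Mean percent of library counts over the 6 mRNA libraries (left) and the 6 footprint libraries (right) against listed length, both axes logarithmic, for the 686 features whose counts averaged 100 or more in each assay. The shaded band marks listed lengths of 1000 and over but under 3000. In the mRNA panel the circle and square stand above every other feature in the band. In the footprint panel they are near a feature of listed length 1444.

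The counts of uc029qyg.1 and uc029wdl.1 were nearly equal in every library. Of the counts of both, uc029qyg.1 held between 50.03% and 51.4% in the mRNA libraries and between 48.4% and 49.7% in the footprint libraries. The 95% Wilson interval of this share was 50.7% to 52.1% in WT mRNA library 2 and 47.7% to 49.1% in KO footprint library 1, the libraries with the highest and lowest share. The observed balance was tipped slightly one way in mRNA and the other way in footprints. The 2 features were ranked by mean mRNA share, with uc029qyg.1 first, so its tilt above an equal split in mRNA is a description. The test between assays below uses these same mRNA values. In single libraries the tilt was often within counting error. The intervals of WT mRNA libraries 1 and 3, KO mRNA libraries 1 and 2, WT footprint library 1 and KO footprint library 3 included an equal split. The mean share was 50.7% ± 0.56 in mRNA and 49.0% ± 0.48 in footprints (SD, n = 6 libraries per assay). This difference of 1.69 percentage points was larger than the spread between libraries (two-sided exact permutation p = 0.0022, the smallest that 6 against 6 libraries allow, Benjamini-Hochberg adjusted 0.024 over the 11 permutation tests made). Every mRNA library lay above every footprint library. These intervals, like those below, cover counting error only.

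**Figure D2:**
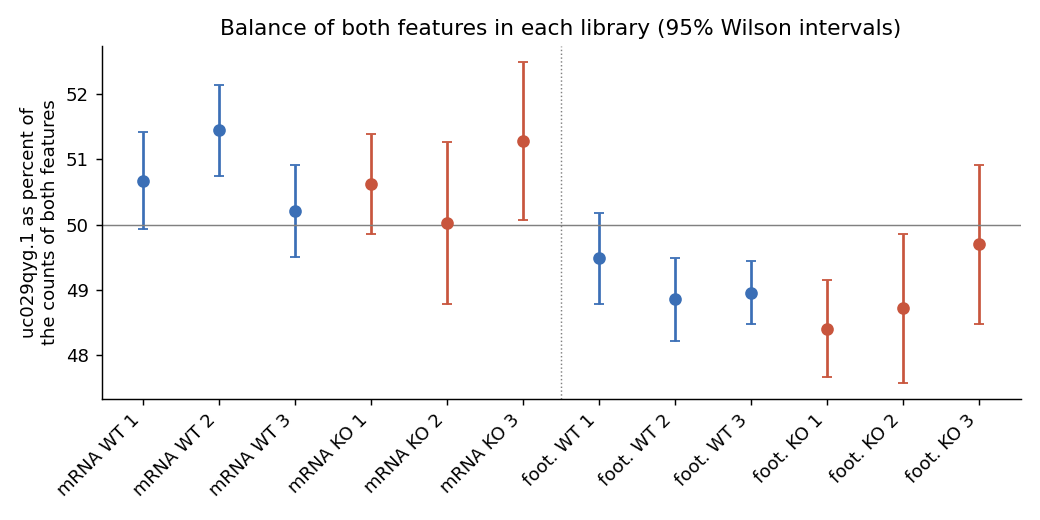
Share of uc029qyg.1 in the counts of both features, in percent, for each library, with 95% Wilson intervals as bars. WT is blue and KO red, and the axis starts above 0. All 6 mRNA points lie at or above 50.03% and all 6 footprint points at or below 49.7%.

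Near-equal counts at 2 identifiers of 1 listed length occurred elsewhere too. Among the 686 features whose counts averaged 100 or more in each assay (called well counted from here on), 24 pairs of the same listed length had counts within 10% of each other in all 12 libraries. In 21 of these pairs the identifiers stood within 10 rows of each other in the files. The pair of uc029qyg.1 and uc029wdl.1 was the 1 pair more than 1000 rows apart, with 15439 rows between its members. How reads that fit more than 1 transcript were counted is not given in the sources used here, and whether the 2 features held the same reads was not tested. They are therefore treated as 2 readings of possibly shared reads, not as independent support, and their separate levels are uncertain. Both still enter the ranks, the counts of features and the Benjamini-Hochberg adjustments as separate features. No other row had the same 12 counts as either. The 20 rows nearest uc029qyg.1 in the files reached at most 46 counts in any library, and those nearest uc029wdl.1 at most 859.

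The mRNA level differed more between libraries than between the 2 features. In WT libraries 1, 2 and 3 uc029qyg.1 took 0.790%, 1.70% and 1.48% of the mRNA counts. In KO libraries 1, 2 and 3 it took 1.32%, 0.442% and 0.489%. KO libraries 2 and 3 were thus below all WT libraries, whereas KO library 1 lay inside the WT range, and the groups overlapped. WT libraries gave uc029wdl.1 shares of 0.769%, 1.60% and 1.47%, and KO libraries 1.28%, 0.441% and 0.465%, in the same order of libraries within each genotype. The counts behind these shares ran from 3114 to 10223, so counting error was small. The 95% Wilson interval of the lowest share, that of uc029wdl.1 in KO library 2, was 0.426% to 0.457%. In KO libraries 2 and 3 the 2 features ranked between 10 and 13 among all features, and in the other mRNA libraries between 1 and 3.

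Over groups, uc029qyg.1 took 1.32% ± 0.47 of WT mRNA counts and 0.749% ± 0.49 of KO mRNA counts (SD, n = 3). For uc029wdl.1 the means were 1.28% ± 0.45 and 0.730% ± 0.48 (SD, n = 3). The KO means were lower, by less than the libraries allow to call. The two-sided exact permutation p was 0.2 for both features (Benjamini-Hochberg adjusted 0.24), where 3 against 3 libraries cannot give less than 0.1. In the fit across all features with edgeR's quasi-likelihood test, the log2 fold change of KO over WT was -0.59 (SE 0.87, adjusted p = 0.695) for uc029qyg.1 and -0.58 (SE 0.86, adjusted p = 0.697) for uc029wdl.1. The threshold for a call was an adjusted p of 0.05. Of 14131 features tested in mRNA, 15.2% were called, and neither of these 2 was among them. Without KO library 1 the log2 fold change was -1.25 for both (adjusted p = 0.453 and 0.451), and without KO library 2 it was -0.33 for both.

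The KO mRNA libraries disagreed about these features more than about most. The highest KO mRNA share of uc029qyg.1 was 2.98 times the lowest. Among the 680 features whose KO mRNA counts averaged 100 or more, the median of this quotient was 1.36, and 9 features, uc029qyg.1 included, spread at least as far. In WT mRNA the quotient was 2.15, against a median of 1.66 over 1278 features, and 18.8% of these spread at least as far.

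Ribosome footprints separated the genotypes further. In WT footprint libraries 1, 2 and 3 uc029qyg.1 took 3.28%, 1.56% and 0.374% of the counts. In KO libraries 1, 2 and 3 it took 0.174%, 0.177% and 0.192%. Every WT library was thus above every KO library, though WT library 3 was nearer to the KO libraries than to the other WT libraries. For uc029wdl.1 footprint shares reached 3.34%, 1.63% and 0.390% in WT, against 0.185%, 0.186% and 0.194% in KO. In WT footprint library 1 uc029wdl.1 and uc029qyg.1 were ranks 1 and 2 of all features. In WT library 3 they ranked 43 and 44, and in the KO libraries between 73 and 87.

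The spread of these footprint shares was wide in WT and narrow in KO. Among WT footprint libraries the highest share of uc029qyg.1 was 8.75 times the lowest, against a median quotient of 1.87 over the 1936 features whose counts there averaged 100 or more, and 17 of these, uc029qyg.1 included, spread at least as far. Among KO footprint libraries the quotient was 1.10, against a median of 1.51 over 3087 features, of which 96.0% spread at least as far. Depth ran opposite to the footprint share in both genotypes, over a far narrower range of shares in KO. The 3 WT footprint libraries held 327847, 847125 and 5966639 deposited counts in the order of their numbers, so the lowest depth went with the highest share. The KO footprint libraries held 5498069, 2266036 and 1875021, and here too the lowest depth had the highest share of both features, at 0.192% and 0.194% against 0.174% and 0.185% at the highest depth. The part of depth in these shares was not tested.

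**Figure D3:**
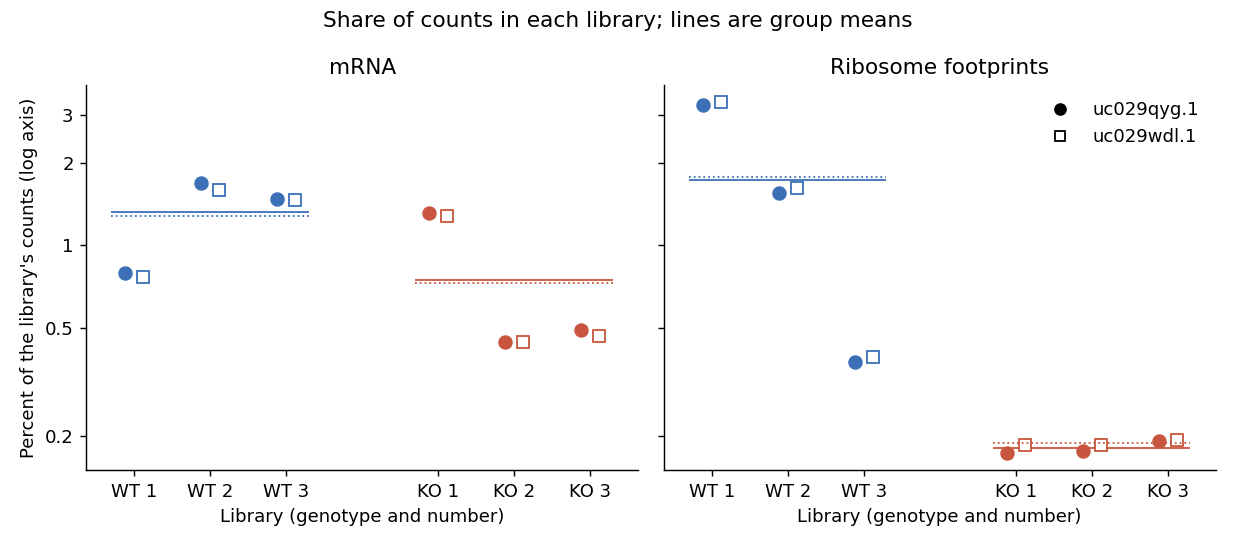
Percent of library counts, on a log axis, of uc029qyg.1 (filled circles) and uc029wdl.1 (open squares) in each mRNA library (left) and footprint library (right), WT in blue and KO in red, with group means as lines (solid and dotted). The 3 KO footprint libraries sit between 0.174% and 0.194%, below every WT footprint library, while KO mRNA library 1 sits among the WT mRNA libraries.

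Over groups, uc029qyg.1 took 1.74% ± 1.46 of WT footprint counts and 0.181% ± 0.0095 of KO footprint counts (SD, n = 3), so the WT mean was 9.60 times the KO mean. For uc029wdl.1 the means were 1.79% ± 1.48 and 0.188% ± 0.0047 (SD, n = 3), a quotient of 9.48. WT library 1 weighed heavily in these quotients, which were 5.34 and 5.36 without it. The two-sided exact permutation p was 0.1 for both features, the smallest that 3 against 3 libraries allow (Benjamini-Hochberg adjusted 0.22). All 3 KO libraries were below all 3 WT libraries for both features, which was also true of 7.66% of the 17236 features tested in footprints. In edgeR's fit across these features the log2 fold change was -2.94 (SE 0.92, adjusted p = 0.093) for uc029qyg.1 and -2.93 (SE 0.92, adjusted p = 0.095) for uc029wdl.1. Neither passed the threshold, and 1.12% of features tested did.

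The size of the footprint difference placed these 2 features at the end of the range, although the test did not call them. By fitted log2 fold change they were the 8th and 9th lowest of the 17236 features, and by unadjusted p they ranked 1083 and 1121. Some other tests of the same counts called them, along with more of all features. DESeq2, which called 5.24% of the features it gave an adjusted p, gave log2 fold changes of -2.96 for uc029qyg.1 and -2.94 for uc029wdl.1 (DESeq2 adjusted p = 9.87e-06 for both). Limma voom with sample weights called 21.9% of all features, these 2 among them, at -3.11 and -3.12 (limma adjusted p = 0.000275 for both). Without WT footprint library 3, edgeR called 16% of features and gave -3.30 and -3.28 for these 2 (adjusted p = 0.0257 and 0.0275). Without WT footprint library 1, the most extreme, the log2 fold changes were -2.47 for both (edgeR adjusted p = 0.0556 and 0.0559), and 2.64% of features were called. With any other library left out, or without the low-count filter, neither feature was called. For uc029qyg.1 the edgeR adjusted p was then 0.247 without WT library 2, 0.241, 0.338 and 0.342 without KO libraries 1, 2 and 3, and 0.214 without the filter.

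**Figure D4:**
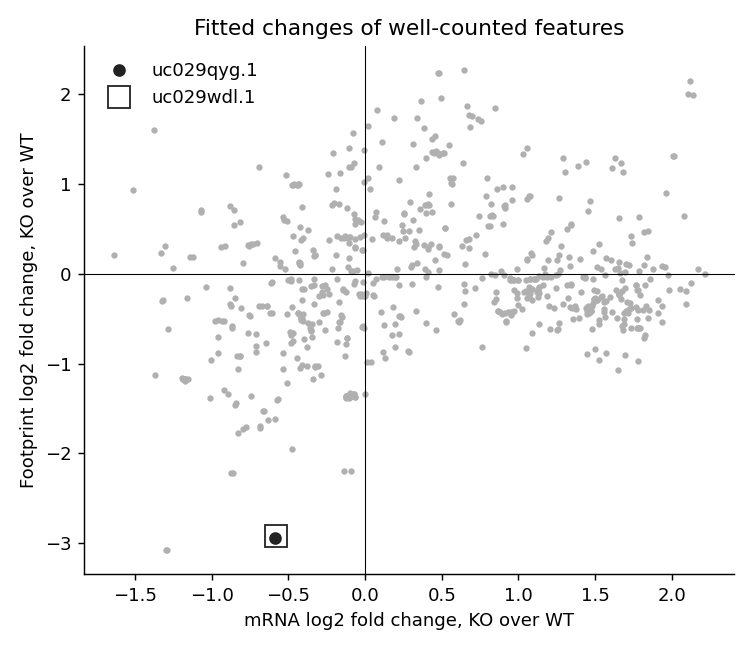
Fitted log2 fold change of KO over WT in footprints (vertical) against that in mRNA (horizontal) for the 686 well-counted features. The circle (uc029qyg.1) and the square around it (uc029wdl.1) lie at -2.94 and -2.93 in footprints and at -0.59 and -0.58 in mRNA. Of the 686 features, 2 had a lower footprint value.

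The footprint to mRNA ratio of these features was not steady within a genotype. Within a genotype, libraries that carry the same number were set together to form it, although no label ties them to the same tissue. For uc029qyg.1 it was 4.15, 0.917 and 0.253 in WT samples 1, 2 and 3. In KO samples 1, 2 and 3 it was 0.132, 0.400 and 0.392. WT samples 1 and 2 were above every KO sample, but WT sample 3 lay below KO samples 2 and 3. For uc029wdl.1 the ratio was 4.35, 1.02 and 0.266 in WT, against 0.144, 0.422 and 0.417 in KO, with the same order of samples. The mean log2 ratio of uc029qyg.1 was -0.02 ± 2.02 in WT and -1.86 ± 0.92 in KO (SD, n = 3), and that of uc029wdl.1 was 0.08 ± 2.02 and -1.77 ± 0.89. These differences, -1.84 for both, were within the spread between samples (two-sided exact permutation p = 0.3 for both, Benjamini-Hochberg adjusted 0.3). Leaving out WT sample 1 gave -0.81 and -0.82, and leaving out KO sample 1 gave -1.32 and -1.33. Leaving out WT sample 3 gave -2.83 for uc029qyg.1 and -2.84 for uc029wdl.1. With TMM-scaled counts in place of percent the difference was -2.04 for both (two-sided exact permutation p = 0.1, the smallest possible). The groups then did not overlap, but only by a narrow margin. For uc029qyg.1, scaled footprints and mRNA were 0.544 and 1.63 in WT sample 3, against 0.186 and 0.584 in KO sample 3.

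The place of the ratio among other features of the same sample also varied. In WT sample 1 the ratio of uc029qyg.1 exceeded that of 91.3% of the 686 well-counted features, in WT sample 2 that of 59.8% and in WT sample 3 that of 24.2%. In KO samples 1, 2 and 3 it exceeded that of 5.98%, 36.4% and 31.9%. The features were selected on a high mRNA share, which is the denominator of the ratio, so a low ratio relative to other features is in part set by the selection. Among the 187 of these features with a listed length of 1000 or more but under 3000, the median log2 ratio was -0.76, -1.58 and -2.01 in WT samples 1, 2 and 3 and -1.67, -0.91 and -0.85 in KO samples 1, 2 and 3. The median of long features was thus highest in WT sample 1 and lowest in WT sample 3, as was the ratio of uc029qyg.1, at 2.05, -0.13 and -1.98 on the log2 scale in WT samples 1, 2 and 3. The KO values of uc029qyg.1, -2.92, -1.32 and -1.35, lay below the medians of their own samples. The ratio was also formed from shares of all counts of listed length 1000 or more but under 3000. On that scale the mean log2 ratio differed by -2.36 between KO and WT for both features. The groups did not overlap there (two-sided exact permutation p = 0.1, the smallest possible). How much of the spread within a genotype this class-wide difference made up was not tested.

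**Figure D5:**
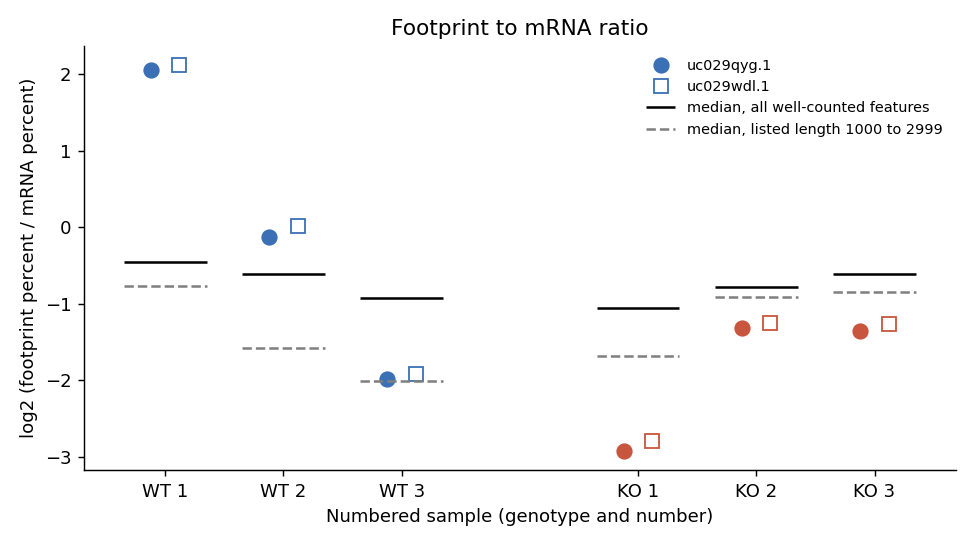
Log2 of footprint percent over mRNA percent in each numbered sample, for uc029qyg.1 (filled circles) and uc029wdl.1 (open squares), with the median of the 686 well-counted features (solid bars) and of those in the class of long features (dashed bars). The WT points run from 2.12 down to -1.98, and the KO points from -1.24 to -2.92.

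In the model of all 12 libraries, translation efficiency was tested as the interaction of assay and genotype. In log2 units the interaction was -2.11 (SE 1.20, edgeR adjusted p = 0.572) for uc029qyg.1 and -2.10 (SE 1.20, edgeR adjusted p = 0.574) for uc029wdl.1. Of the 25927 features tested, 0% were called by edgeR, although 2567 had an unadjusted p below 0.05. The DESeq2 test called 58 features, or 2.07% of those it gave an adjusted p, and limma voom 541, or 2.09%. Neither DESeq2 nor voom called these 2 features (DESeq2 adjusted p = 0.0586 for both, limma adjusted p = 0.0855 and 0.0825). Without WT sample 1 the interaction was -1.40 and -1.41, and without KO sample 1 it was -1.60 and -1.61. Without WT sample 3 it was -2.61 and -2.62, so its size rested on which samples of either genotype were kept.

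The shares of the 2 features were also set beside those of other long features. The class of listed length 1000 or more but under 3000, without uc029qyg.1 and uc029wdl.1, took 27.0% ± 5.3 of WT mRNA counts and 18.5% ± 0.41 of KO mRNA counts (SD, n = 3). In footprints they took 11.8% ± 6.5 in WT and 13.3% ± 5.4 in KO, a difference smaller than the SD of either group. Of 2841 features of the class tested in mRNA, edgeR called 390 lower and 90 higher in KO, 16.9% of the class, against 851 lower and 1294 higher over all 14131 features, 15.2%. The median log2 fold change in mRNA was -0.31 in the class and 0.02 over all features. In footprints edgeR called 19 of 2706 lower and 18 higher, 1.37% of the class, against 75 lower and 118 higher over all features, 1.12%. The footprint median was -0.26 in the class and -0.02 over all features. The mRNA difference of uc029qyg.1 was -0.59, and its footprint difference, -2.94, was the 2nd lowest of the class. Taken as a share of the whole class, uc029qyg.1 and uc029wdl.1 now included, in place of the whole library, uc029qyg.1 held 13.1%, 10.5% and 6.06% of the class's footprint counts in WT libraries 1, 2 and 3 and 2.16%, 0.942% and 1.36% in KO. The groups did not overlap on this scale either. Of the class's mRNA counts uc029qyg.1 held 4.62% ± 1.95 in WT and 3.65% ± 2.12 in KO (SD, n = 3). Those groups overlapped (two-sided exact permutation p = 0.6).

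The next most abundant long mRNA had a listed length of 1444 and served as a yardstick within each library. Its footprint share was 0.392%, 0.656% and 0.302% in WT libraries 1, 2 and 3 and 0.842%, 2.42% and 1.58% in KO. In WT footprint libraries uc029qyg.1 was 8.35, 2.37 and 1.24 times as high as this feature. In KO footprint libraries it was 0.207, 0.0731 and 0.121 times as high. The order of uc029qyg.1 and the yardstick was thus opposite in the genotypes, in every footprint library. Part of this reversal lay in the yardstick itself, whose mean log2 footprint share was 1.79 higher in KO, while that of uc029qyg.1 was lower, with a difference of -2.78. In edgeR's fit the yardstick had log2 fold changes of 1.84 in footprints (SE 0.89, adjusted p = 0.241) and 0.84 in mRNA (SE 0.56, adjusted p = 0.325), neither called. The mean log2 quotient of uc029qyg.1 over the yardstick thus differed by -4.57 between KO and WT, with no overlap of the groups (two-sided exact permutation p = 0.1, the smallest possible, Benjamini-Hochberg adjusted 0.22). In mRNA libraries uc029qyg.1 remained above it, at 3.19, 8.06 and 7.81 times in WT and 4.40, 1.48 and 1.32 times in KO (two-sided exact permutation p = 0.2, Benjamini-Hochberg adjusted 0.24). For uc029wdl.1 the differences were -4.56 in footprints and -1.51 in mRNA, with the same p-values.

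Few features had a pattern like that of uc029qyg.1. Over the 12 libraries, the Pearson correlation of log2 CPM with uc029qyg.1 had a median of 0.09 across the 684 other well-counted features. Among these, 28 exceeded 0.8 and 3 exceeded 0.9. The correlation was 0.999 for uc029wdl.1. The next most alike were 2 near-identical features of listed length 771, both with 0.960. All points share the libraries' depth and composition, so these correlations are descriptions. The first of the 2 features of listed length 771 took 0.0509%, 0.0315% and 0.00749% of footprint counts in WT libraries 1, 2 and 3 and 0.00259%, 0.00309% and 0.00303% in KO. Its footprints thus followed the same order in WT and the same low level in KO, at a far lower share. In mRNA it took 0.0345%, 0.0465% and 0.0325% in WT and 0.0186%, 0.0108% and 0.00936% in KO, where the groups did not overlap. Its log2 fold change was -1.29 (SE 0.31) in mRNA, -3.08 (SE 0.54) in footprints and -1.55 (SE 0.59) in translation efficiency, values that its selection by likeness helped to set.

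The order of the footprint libraries seen here, WT 1 over WT 2 over WT 3 over every KO library, occurred in 22 of the 686 well-counted features, or 3.21%. With at least an 8-fold step from WT library 3 to WT library 1, it occurred in 2, uc029qyg.1 and uc029wdl.1 themselves. This threshold was chosen after their values were seen and lies just under them, so the count only describes these 2 features. The median quotient of WT library 1 over WT library 3 was 0.928 over all 686 features and 2.89 over the long ones, against 8.75 and 8.57 for uc029qyg.1 and uc029wdl.1. By this quotient alone they ranked 7 and 13 of the 686, so other features stepped as far without the same order of libraries. In bulk tissue, fewer cells that hold an mRNA and less of it per cell cannot be told apart.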

How the data were processed

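Footprint and mRNA libraries of WT and KO eyes were compared, 3 per group. Per the labels, footprints came from RNase I digestion and ribosome pelleting, and mRNA libraries were made with stranded TruSeq. The submitters' processing notes list TopHat2 2.0.9, Bowtie2 2.3.4.2, CASAVA 1.8 and mm10. How reads were counted, and on which annotation, is not given in the sources used here. Read counts per transcript were deposited by the authors, not normalized, with a second number without a unit, used as the listed length.

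Rows with equal counts in all 12 libraries were kept once (42689 rows with counts, 32803 features). Percent is of the kept total. Tests were edgeR 4.0.16 quasi-likelihood fits over all features (R 4.3.3, TMM scaling, default low-count filter, and for translation efficiency at least 10 counts summed over each assay's libraries), with Benjamini-Hochberg adjustment. SE was derived from the F statistic. Alternatives used DESeq2 1.42.0 and limma 3.58.1. Scripts were tested on simulated counts with the same dispersion for every feature and libraries that differed only in depth and genotype. That setting does not cover the wide spread of these 2 features between libraries. Features alike were the 2 with the highest correlation with uc029qyg.1, outside the listed length. The members, lists and tests were chosen with earlier results of these data known. The check of tissue markers planned was not run, since identifiers are not paired with genes.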

Additional observations from a re-analysis of the deposited data

How the results depend on the processing

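No direction changed in any alternative run for uc029qyg.1 and uc029wdl.1. The mRNA log2 fold change ran from -1.25 to -0.33 over 13 alternatives and was never called. The footprint call was gained with DESeq2 (-2.96 and -2.94), with voom sample weights (-3.11 and -3.12) and without WT library 3. With replicates left out the footprint value ran from -3.30 to -2.47 for uc029qyg.1 and from -3.28 to -2.47 for uc029wdl.1. The causes were not tested. The translation efficiency value ran from -2.61 to -1.40 and from -2.62 to -1.41 over 14 alternatives, with no call. The edgeR low-count filter for translation efficiency was added after the data were seen (-2.20 and -2.19, adjusted p = 0.448 and 0.449).

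Libraries with the same number deviated from their group means with correlations of -0.674 to 0.849 over 12 pairs. Of these, 6 were over 0.1 and 6 best with their own number, so the number does not pair libraries throughout. Between footprints and mRNA, WT numbers 1, 2 and 3 gave 0.819, 0.046 and 0.849, and KO numbers -0.127, -0.157 and 0.279. The replicate block was the number across genotypes in the fits of 1 assay, and the numbered sample of a genotype for translation efficiency. With the replicate block, uc029qyg.1 gave -0.73 in mRNA, -2.73 in footprints (adjusted p = 0.265) and -1.85 in translation efficiency, and uc029wdl.1 -0.72, -2.72 and -1.85, with no call gained or lost.

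Over all features, mRNA calls (2145) were 1281 with DESeq2, 3991 with voom and 652 to 4379 with replicates left out. Footprint calls (193) were 711 with DESeq2, 3772 with voom, 82 with every transcript separate, 968 without the low-count filter, 0 with the replicate block and 0 to 3057 with replicates left out. Translation efficiency calls (0) were 2 with DESeq2 size factors, 58 with DESeq2, 541 with voom, 5 without the filter, 1 with every transcript separate, 321 with the replicate block and 0 to 131 with replicates left out.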
